A study of Mus musculus with 6 samples.

Results

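The genes described here are the 9 members of the Indian hedgehog axis of the mouse uterus: the ligand Ihh, the receptor Ptch1, the co-receptor Gas1, the decoy receptor Hhip, the signal transducers Smo, Gli1, Gli2 and Gli3, and the uterine target Nr2f2. They were found as every probe set, meaning a group of array probes read as 1 value, that the platform annotation assigns to exactly 1 gene symbol equal to a member's name. This gave 26 probe sets of 45101 on the array and 9 genes of 18193. Both groups were ovariectomized females of mixed background, 8 weeks old, that carried the genotype GATA2 f/f, which by convention means that both copies of Gata2 are floxed. No recombinase is named in the labels. One group of 3 arrays came from uterine horns after Oil, the other 3 from horns after P4, the usual abbreviation of progesterone. The labels give neither a dose nor a time after treatment, nor do they tie each array to an animal of its own. The p-values therefore describe spread among the arrays as labelled, and this spread may be technical. Animals without the floxed allele were not analysed here.

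Hedgehog ligands are secreted proteins that bind Ptch1 on a receiving cell. Free Ptch1 holds the membrane protein Smo inactive; once the ligand binds, Smo acts through the primary cilium on the GLI transcription factors, and Gli1, Ptch1 and Hhip are themselves classic target genes of the pathway in many tissues. In the mouse uterus progesterone induces Ihh in the epithelium, while Ptch1, the GLI factors and Nr2f2, which encodes the nuclear receptor COUP-TFII, belong mainly to the stroma below it, so the axis is known as a route from epithelium to stroma before implantation. Whole horns were measured, so fewer cells of a type and less RNA per cell cannot be told apart.

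Of the 26 probe sets, 3 rose after P4 and 1 fell at a limma adjusted p under 0.05: the single probe set of Ihh, 2 of Gas1 and, lower, 1 of Nr2f2. Over all 45037 probe sets tested, 8.62% passed this test, 4.13% higher and 4.49% lower. By the brightest probe set of each gene, 2 of 9 members rose and 0 fell (Ihh and Gas1), where 11.4% of all genes passed, 5.39% higher and 6.02% lower. With the replicate number as a block, 5 probe sets were higher and 1 lower, beside 14.8% of all probe sets (6.81% higher and 8.01% lower), and 3 genes were higher and 0 lower, beside 19% of all genes (8.52% higher and 10.5% lower). At an unadjusted limma p under 0.05 there were 3 of 9, beside 26.5% of all genes. The median log2 difference of the 26 probe sets was 0.01, and that of all probe sets was -0.004. In 7 of the 26 the 3 P4 arrays lay wholly on 1 side of the 3 Oil arrays, 6 above and 1 below, which held for 26.6% of all probe sets (12.4% above and 14.2% below). By brightest probe sets it was 3 of 9, all above, beside 31.8% of genes (14.3% above and 17.5% below). The share of members without overlap was thus close to that of the whole array. The plot of levels by array shows the brightest probe set of each member, and the plot of differences shows all 26.

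**Figure D1:**
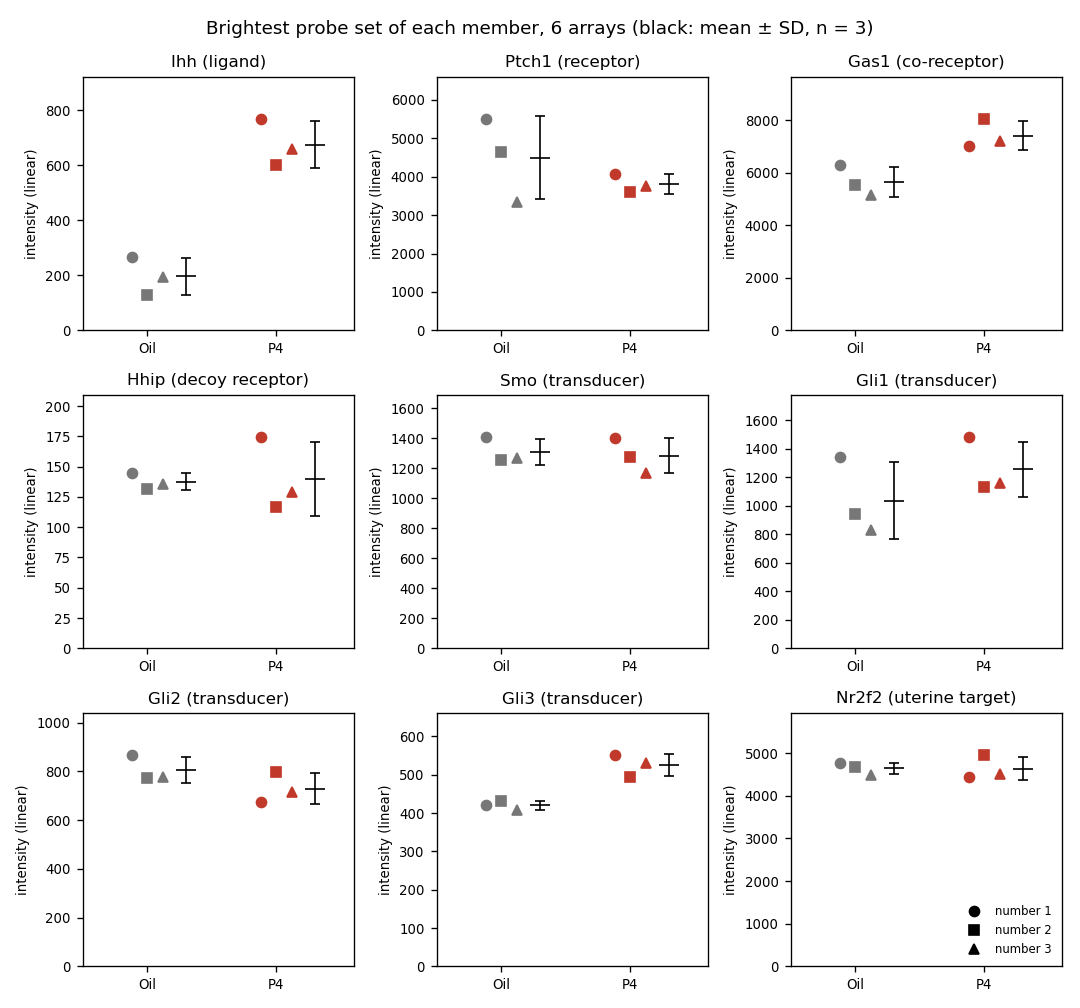
Linear intensity (y axis, from 0) of the brightest probe set of each of the 9 members on 3 Oil and 3 P4 arrays; symbols give the replicate number and black marks the mean ± SD. Ihh lies between 130.0 and 265 after Oil and between 599 and 766 after P4, while the groups of Ptch1, Smo, Hhip, Gli1, Gli2 and Nr2f2 overlap.

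The sequences just upstream of the annotated start are shown for Ihh and Gas1, the members whose brightest probe sets rose. They are the 250 bases before the start site in RefSeq, build GRCm38.p6, minus strand in both genes, at chr1:74951673-74951922 for Ihh and chr13:60177536-60177785 for Gas1, printed 5′ to 3′.
Ihh: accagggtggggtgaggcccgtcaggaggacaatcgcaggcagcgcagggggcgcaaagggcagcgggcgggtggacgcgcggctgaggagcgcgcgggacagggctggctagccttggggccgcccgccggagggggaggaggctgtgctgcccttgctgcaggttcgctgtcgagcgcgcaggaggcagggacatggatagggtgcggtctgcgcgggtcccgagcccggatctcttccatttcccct
Gas1: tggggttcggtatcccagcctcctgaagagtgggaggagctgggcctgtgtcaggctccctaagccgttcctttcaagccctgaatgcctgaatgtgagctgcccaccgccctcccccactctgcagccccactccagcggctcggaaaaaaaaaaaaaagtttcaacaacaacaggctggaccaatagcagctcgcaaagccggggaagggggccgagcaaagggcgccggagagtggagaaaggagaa
Motifs of 3 kinds were searched on both strands in the window from 250 bases before to 50 bases after the start: the GLI site GACCACCCA, the GATA site written as AGATAA or TGATAA, and the palindromic progesterone response element ACANNNTGT. No motif matched in either printed stretch, and both are printed in lower case throughout. A window was at hand for 8 of the 9 members (not for Gli1), and in all 8 there were 0 matches to any of the 3 motifs. Among 32851 windows of this length the GLI site occurred in 0.253%, a GATA site in 18.6% and the response element in 6.85%. The windows of Ihh and Ptch1 held 72.7% and 76.3% G and C, and that of Nr2f2 49.7%. These letters being missing from so short a window carries no information about binding elsewhere.

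Ihh, the ligand, showed by far the widest separation among the members. Its intensities were 265, 130.0 and 193 on Oil arrays 1, 2 and 3, and 766, 599 and 657 on the P4 arrays of the same numbers. The lowest P4 array was above the highest Oil array. The means were 196 ± 67.6 (SD, n = 3) and 674 ± 84.7 (SD, n = 3), a log2 difference of 1.75 ± 0.21 (SE; limma adjusted p 0.0025), or 3.35-fold on the log2(intensity + 16) scale. Within numbers the log2 differences were 1.48, 2.08 and 1.69. The call held with any 1 array left out (adjusted p up to 0.0118) and with both arrays of any 1 number left out (up to 0.0375).

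Ihh is a gene of the uterine epithelium. Markers of epithelium were read beside it, and the part of cell content in its difference was not tested. Of 8 measured markers, 0 passed in either direction (0 higher and 2 lower by unadjusted limma p under 0.05, and likewise with the block), with a median log2 difference of -0.19. The keratins Krt18 (-0.62), Krt8 (-0.36) and Krt19 (-0.34), the adhesion molecule Epcam (-0.40) and the cadherin Cdh1 (-0.05) lay below 0. Cldn4 (0.31), Cldn7 (0.26) and Krt7 (0.14) lay above 0. The summed intensity of the 8 ran from 14814 to 17622 on the Oil arrays and from 9641 to 16669.9 on the P4 arrays. The lowest sum was on P4 array 2, on which Ihh was 599. Of 6 gland markers 0 passed, with a median log2 difference of 0.07. By unadjusted limma p under 0.05, 2 were higher: Aldh1a1 (1852 after Oil and 2784.5 after P4) and the dim Spink1 (34.8 and 49.6). With the block 1 passed, Aldh1a1 (limma adjusted p 0.0198). Foxa2 read 239 after Oil and 242 after P4, and Cxcl15 differed by -0.15. The summed intensity of the gland markers ran from 1970 to 4438 on the Oil arrays and from 2926 to 4755 on the P4 arrays. The defining markers of epithelium, stroma and smooth muscle were all well represented, with Krt8 at 3556 after Oil, Pdgfra at 4139 and Acta2 at 15959.

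The other 2 hedgehog ligands were dim and differed little. Shh read 55.4 ± 2.19 after Oil and 55.3 ± 2.77 after P4, and Dhh 83.2 ± 0.68 and 89.0 ± 10.5. Neither passed the test (limma adjusted p 0.995 and 0.752). Ihh was thus the 1 ligand of the family with a call.

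Ptch1, the receptor and a classic target, had 3 probe sets, all with overlapping groups. The brightest read 5492, 4645 and 3338 on Oil arrays 1 to 3 and 4081, 3594 and 3754 on the P4 arrays. The Oil arrays spanned the whole range of the P4 arrays and beyond. The log2 difference was -0.21 ± 0.16 with a 95% interval from -0.57 to 0.15 (limma adjusted p 0.536). It was below 0 within numbers 1 and 2 (-0.43 and -0.37) and above 0 within number 3 (0.17). Without Oil array 1 the difference was -0.05 and without Oil array 3 it was -0.41 (limma adjusted p 0.926 and 0.0509). The probe set 1439663_at had the same split, with -0.71, -0.27 and 0.16, and a difference of -0.27 ± 0.15 (adjusted p 0.363). The third, 1450824_at, was dim at 62.8 ± 3.11 and 60.7 ± 7.55. So the upper bound of the interval was 0.15 log2 for the brightest and 0.07 for 1439663_at, against a lower bound of 1.26 for Ihh.

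Gas1, a membrane protein that helps present hedgehog ligands to Ptch1, was higher after P4 in all 3 of its probe sets, 2 of which passed. The brightest read 6280, 5513 and 5150.2 after Oil and 7004, 8029 and 7209.5 after P4. Every P4 array was above every Oil array, though P4 array 1 was the lowest of its group and Oil array 1 the highest. The log2 difference was 0.39 ± 0.09 (limma adjusted p 0.027), which is 1.31-fold. For 1448494_at the intensities were 3106, 2585 and 2433 after Oil and 3599.9, 3785 and 3569.7 after P4, a difference of 0.44 ± 0.10 (adjusted p 0.0265). The dimmer 1456322_at differed by 0.42 ± 0.12 and missed the threshold (adjusted p 0.0633), but passed with the block (0.0308). Within number 1 the brightest probe set differed by 0.16, within numbers 2 and 3 by 0.54 and 0.48.

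The Gas1 calls rest on most of the arrays. They were lost without Oil array 2 or 3 and without P4 array 2 or 3 (limma adjusted p 0.0561 to 0.11) and kept without Oil array 1 or P4 array 1. Quantile normalization also ended both (0.055 and 0.0735), with differences of 0.32 and 0.36.

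Hhip, the membrane protein that traps hedgehog ligands and is itself a classic target, was dim in all 4 probe sets. The brightest read 145, 131 and 136 after Oil and 174, 117 and 129 after P4. P4 arrays lay on both sides of the Oil arrays. The difference was 0.01 ± 0.14, with a 95% interval from -0.30 to 0.31 (limma adjusted p 0.989). The other 3 ranged from -0.19 to 0.08, none passing, and 1438083_at, at 22.4 ± 6.30 and 24.3 ± 3.87, was dimmer than all but 5.13% of probe sets.

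Smo, which passes the signal from Ptch1 inward, had no probe set that passed the test. Its brightest probe set read 1406, 1252 and 1269.5 after Oil and 1403, 1273 and 1172 after P4. The log2 difference was -0.03 ± 0.10 (95% interval -0.25 to 0.19), and that of 1427048_at 0.01 ± 0.10 (-0.20 to 0.23). The dim 1442215_at read 79.1, 56.3 and 33.8 after Oil and 72.2, 54.6 and 37.7 after P4. Here the arrays differed by number rather than by treatment.

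Gli1, an activator whose transcript is the usual readout of hedgehog signalling, did not pass. Its single probe set read 1340.3, 942 and 829 after Oil and 1481, 1130.2 and 1161 after P4. Oil array 1 lay above P4 arrays 2 and 3, so the groups overlapped, while within each number the P4 array was higher, by 0.14, 0.26 and 0.48 log2. The difference was 0.29 ± 0.18 with a 95% interval from -0.11 to 0.70 (limma adjusted p 0.412, and 0.0594 with the block). It was 0.49 without Oil array 1 and 0.15 without Oil array 3 (limma adjusted p 0.117 and 0.713). An increase of up to 0.70 log2 is therefore within the interval, but not one of the size seen for Ihh.

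Gli2, the main activator among the GLI proteins in many tissues, read 866, 774 and 776 after Oil and 676, 798 and 715 after P4 in its brightest probe set. P4 array 2 lay among the Oil arrays. The difference was -0.14 ± 0.10 (95% interval -0.36 to 0.08; limma adjusted p 0.489), and -0.12 ± 0.09 in 1446086_s_at, which turned to 0.002 with scaling to hybridisation controls.

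Gli3, whose processed form is the main repressor of the pathway, had probe sets on both sides of 0, none of which passed. The brightest, 1456067_at, read 422, 431 and 407 after Oil and 550.4, 494 and 529.8 after P4. The groups did not overlap. Its difference of 0.31 ± 0.09 missed the threshold among all probe sets (limma adjusted p 0.0678) and passed with the block (0.0404) or when 1 probe set per gene was fitted (0.041, a fit in which 13.1% of genes passed, 6.1% higher and 6.96% lower). In all, 1456067_at passed in 5 of 14 alternatives that kept all arrays, these among them (lowest limma adjusted p 0.0199). With any 1 array left out it did not pass (0.0978 to 0.186). The second, 1455154_at, differed by 0.26 ± 0.10, also without overlap (adjusted p 0.16). The third, 1450525_at, read 148, 158 and 154 after Oil and 132, 125 and 153 after P4, a difference of -0.16 ± 0.10 (adjusted p 0.436). The change of the third minus that of the brightest was -0.47 log2, with an exact two-sided permutation p of 0.1, the smallest that 3 against 3 arrays can give.

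**Figure D2:**
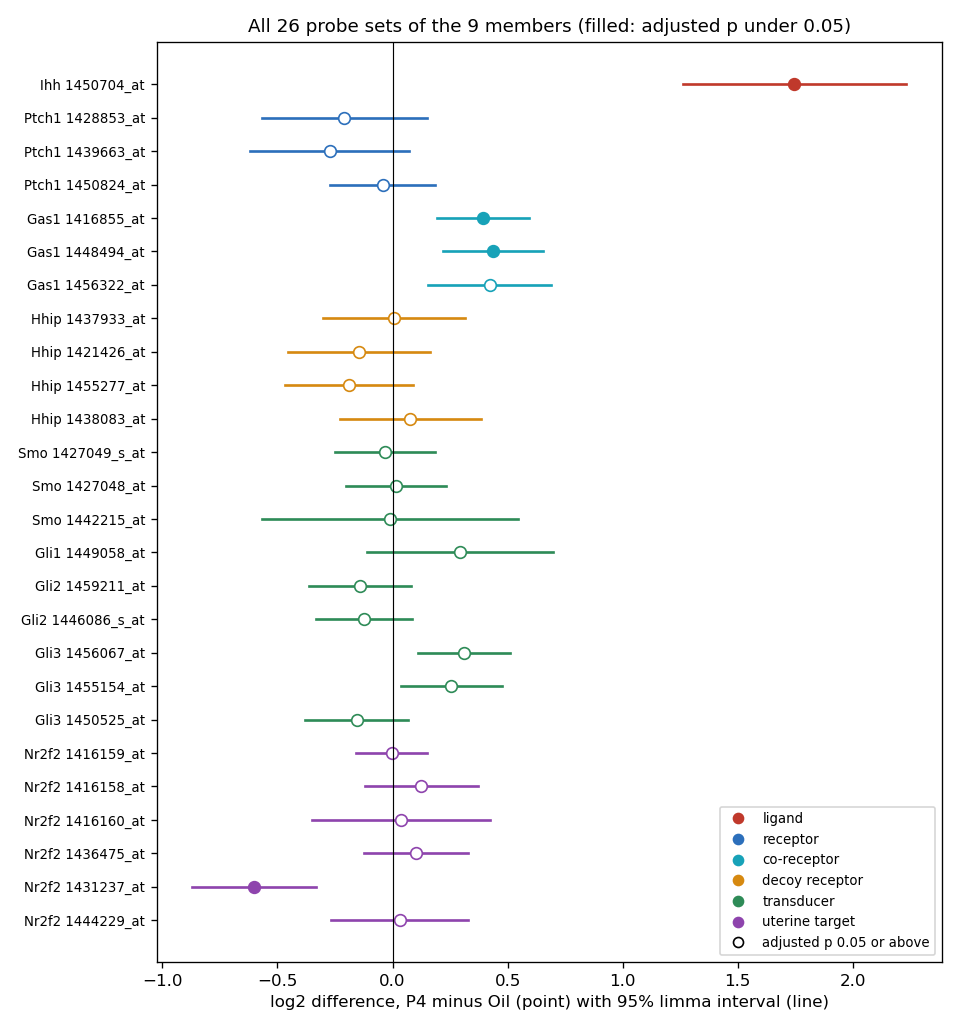
Log2 difference of P4 minus Oil (x axis; points, with lines for the 95% limma interval) of all 26 probe sets, coloured by the role of the gene and filled where the adjusted p was under 0.05. Ihh stands at 1.75, the 3 probe sets of Gas1 between 0.39 and 0.44, and 1431237_at of Nr2f2 at -0.60 beside 5 other Nr2f2 probe sets near 0.

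Nr2f2, the stromal nuclear receptor at the end of the axis, had 5 probe sets that did not pass the test and 1 that fell. The brightest read 4758, 4675 and 4489 after Oil and 4449.6, 4946 and 4499.6 after P4. The groups overlapped, and the difference was -0.004 ± 0.07 with a 95% interval from -0.16 to 0.15 (limma adjusted p 0.984). The other 4 that did not pass had differences from 0.03 to 0.12 (adjusted p 0.601 to 0.94).

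The sixth Nr2f2 probe set, 1431237_at, read 791, 819.7 and 693 on the Oil arrays and 575, 443 and 489 on the P4 arrays. Each P4 array was below each Oil array, and below its own number by 0.45, 0.86 and 0.49 log2. The difference was -0.60 ± 0.12 (limma adjusted p 0.0168). Its change minus that of the brightest probe set was -0.60 log2 (exact two-sided permutation p 0.1, the smallest possible). The call was lost without Oil array 1 or 2 or P4 array 2 or 3 (adjusted p 0.0512 to 0.0789) and held in 12 of 12 other alternatives that kept all arrays (up to 0.0378). Which part of the transcript each probe set reads was not examined, and a value for the gene as a whole cannot be drawn from this 1 probe set.

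**Figure D3:**
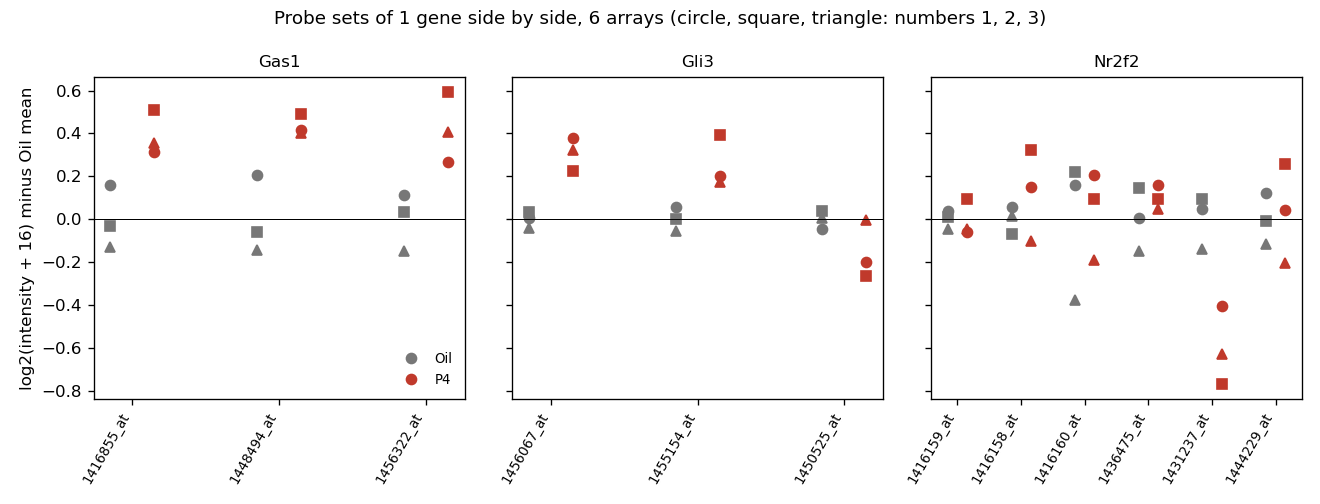
Log2(intensity + 16) of each array minus the Oil mean of the same probe set (y axis) for all probe sets of Gas1, Gli3 and Nr2f2 (x axis), grey for Oil and red for P4. The 3 Gas1 probe sets move alike, 1450525_at of Gli3 lies on the other side of 0 from the other two, and of the 6 Nr2f2 probe sets only 1431237_at separates the groups.

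The change of the ligand was set against that of the 3 classic targets and of Nr2f2 on each array, by the brightest probe sets. The log2 change of Ihh exceeded that of Ptch1 by 1.95, that of Gli1 by 1.45, that of Hhip by 1.74 and that of Nr2f2 by 1.75. In all 4 comparisons every P4 array lay above every Oil array. Ihh alone already separated the groups, with its lowest P4 array at 599 and its highest Oil array at 265. The separation therefore follows largely from Ihh and is no separate evidence about the 4 genes. The exact two-sided permutation p was 0.1 for each, and 0.1 after Benjamini-Hochberg adjustment over the 4, which is the smallest value the design allows, so none can pass 0.05. With 1 array left out the 4 differences stayed between 1.26 (Gli1) and 2.17 (Ptch1).

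Among 11 uterine genes listed upstream of Ihh, 3 rose and 3 fell (6 of 11, beside 11.4% of all genes). Their place upstream of Ihh was not tested here. Gata2, Sox17 and the growth factor receptor Egfr rose: Gata2 from 3699 ± 227 to 6271 ± 964 (0.75 ± 0.11), Sox17, an epithelial transcription factor, by 0.58 ± 0.11, and Egfr by 0.87 ± 0.11. The progesterone receptor Pgr fell by 0.86 on the log2 scale, from 3815 ± 327 to 2098 ± 112, and the coactivator Ncoa2 by 0.38 (SE 0.09). Esr1, the estrogen receptor, was the third that fell (-0.36 ± 0.07). Of the 7 probe sets of Egfr 2 passed, and the mean of all 7 differed by 0.26 (limma adjusted p 0.0418). Sox17 lost its call without Oil array 1 or 2 (limma adjusted p up to 0.0654) and with quantile normalization (0.0535), and Ncoa2 without any array but P4 array 1 (up to 0.134) and when arrays were scaled to hybridisation controls (0.13).

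Of 17 measured genes for hedgehog ligands, their processing and release, 2 rose and 0 fell (4 and 1 by unadjusted limma p under 0.05). This share of 11.8% was near the 11.4% of all genes. Scube2, a secreted protein that helps release lipid-bearing hedgehog from the cell, read 161 to 200.1 after Oil and 681 to 923 after P4, a log2 difference of 2.08 ± 0.13 (limma adjusted p 0.000231). Lrp2, the endocytic receptor megalin, which also binds hedgehog, read 87.6 to 100.5 after Oil and 931 to 1616 after P4, or 3.36 ± 0.19. Both held with any 1 array and with any 1 number left out (adjusted p up to 0.0257). Of the 3 probe sets of Lrp2 1 did not pass. Hhat, the enzyme that attaches palmitate to hedgehog, differed by 0.39 ± 0.11 without overlap and missed the threshold (limma adjusted p 0.0578). With the block it passed (0.0211), which made 3 higher and 0 lower in this list.

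Of 5 measured co-receptors and receptor regulators 0 passed, beside 11.4% of all genes (0 higher and 1 lower by unadjusted limma p under 0.05). The 2 brightest were Mgrn1, which read 1175 after Oil and 918 after P4 (-0.37 ± 0.13, adjusted p 0.122), and Mosmo, at 1054 and 1176 (0.16 ± 0.09). The co-receptors Cdon and Boc differed by -0.23 ± 0.11 and 0.15 ± 0.10.

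Genes of signal transduction and of the cilium had 0 higher and 4 lower of 29 (1 and 7 with the block, 2 and 9 by unadjusted limma p under 0.05). This share of 13.8% was near the 11.4% of all genes (5.39% higher and 6.02% lower). The median log2 difference was -0.12. The calls added by the block were Tulp3 higher and Ift172, Efcab7 and Evc lower (limma adjusted p 0.0178 to 0.04). Ift122 and Kif3a, which carry cargo within the cilium, fell by 0.67 and 0.59. The adenylyl cyclase Adcy6 and the kinase Dyrk2 had -0.41 ± 0.08 and -0.41 ± 0.09. Sufu, the inhibitor that holds GLI proteins in the cytoplasm, differed by 0.14 ± 0.11 and did not pass. Scaling to the hybridisation controls ended the calls of Adcy6 (limma adjusted p 0.0713) and Dyrk2 (0.124), and the mean of its probe sets also ended that of Dyrk2 (0.0722, with a difference of -0.26). The mean of the 4 probe sets of Kif3a differed by -0.38 (0.021). Kif3a and Adcy6 were lost without Oil array 1 or 2 (up to 0.0702), and Dyrk2 without either of these, P4 array 1 or P4 array 3 (up to 0.113).

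Textbook hedgehog targets from many tissues had 1 higher and 4 lower of 23 (1 and 6 with the block, 1 and 7 by unadjusted limma p under 0.05), beside 5.39% higher and 6.02% lower over all genes. Snai1, a repressor of epithelial genes, rose from 243 ± 42.8 to 422 ± 26.7 (0.77 ± 0.13). Mycn, a growth-promoting transcription factor (319 ± 135 to 145 ± 29.6), the cell cycle kinase Cdk6 (-0.64 ± 0.12), the survival gene Bcl2 (-0.56 ± 0.11) and the repressor Prdm1 (-0.50 ± 0.12) fell. All 5 probe sets of Bcl2 passed. The bone morphogenetic protein Bmp4 (-0.40 ± 0.11) and the cyclin Ccnd1 (-0.31 ± 0.08) missed the threshold (limma adjusted p 0.0509 and 0.0529) and passed with the block (0.015 and 0.0335). The forkhead gene Foxf1, a hedgehog target of mesenchyme, read 281 after Oil and 273 after P4. Mycn lost its call without Oil array 2, P4 array 1 or P4 array 2 (limma adjusted p up to 0.136) and with the mean of its 3 probe sets (0.0894), which moved its log2 difference from -1.003 to -0.33, or with robust moderation (0.0892), Bcl2 without Oil array 1 or 2 or P4 array 2 (up to 0.0701), Cdk6 without Oil array 1 (0.061), and Prdm1 without any array but P4 array 1 (up to 0.131) and with scaling to hybridisation controls (0.0727).

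Among 13 genes listed downstream of Nr2f2, mostly of the stroma, 4 rose and 0 fell (4 and 2 with the block, 4 and 1 by unadjusted limma p under 0.05). This was 30.8%, beside 11.4% of all genes. The pair that passed as lower with the block was Muc1 (limma adjusted p 0.00248) and Angpt1 (0.00811). Without the block neither passed (0.553 and 0.0875). Muc1 read 301, 328 and 1104 after Oil and 153, 153.5 and 763 after P4, so its groups overlapped. The pairing behind the block was drawn from these same data. Those that rose were Fst, the activin antagonist follistatin (2.03 ± 0.40), the homeobox genes Hoxa11 (0.89 ± 0.08) and Hoxa10 (0.81 ± 0.10), and Hand2, a transcription factor of the stroma (0.50 ± 0.10). Of the 3 probe sets of Hand2 2 did not pass, and of the 2 of Hoxa10 1 did not. Bmp2 and Wnt4, the signals of the decidual response most often placed after Nr2f2, did not pass: Bmp2 read 378 ± 83.5 and 300.0 ± 73.5 (-0.32 ± 0.20), Wnt4 902 and 958 (0.09 ± 0.11). Fst lost its call without Oil array 1 or 2 or P4 array 2 (limma adjusted p up to 0.0729) or under robust moderation (0.108), and Hand2 without any 1 Oil array or P4 array 3 (up to 0.0806). Stromal markers had 1 higher, Hoxa11, and 1 lower, the matrix protein Lum, of 9 (3 and 2 with the block), and their summed level was 48441 to 54873 after Oil and 44651 to 55857 after P4.

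**Figure D4:**
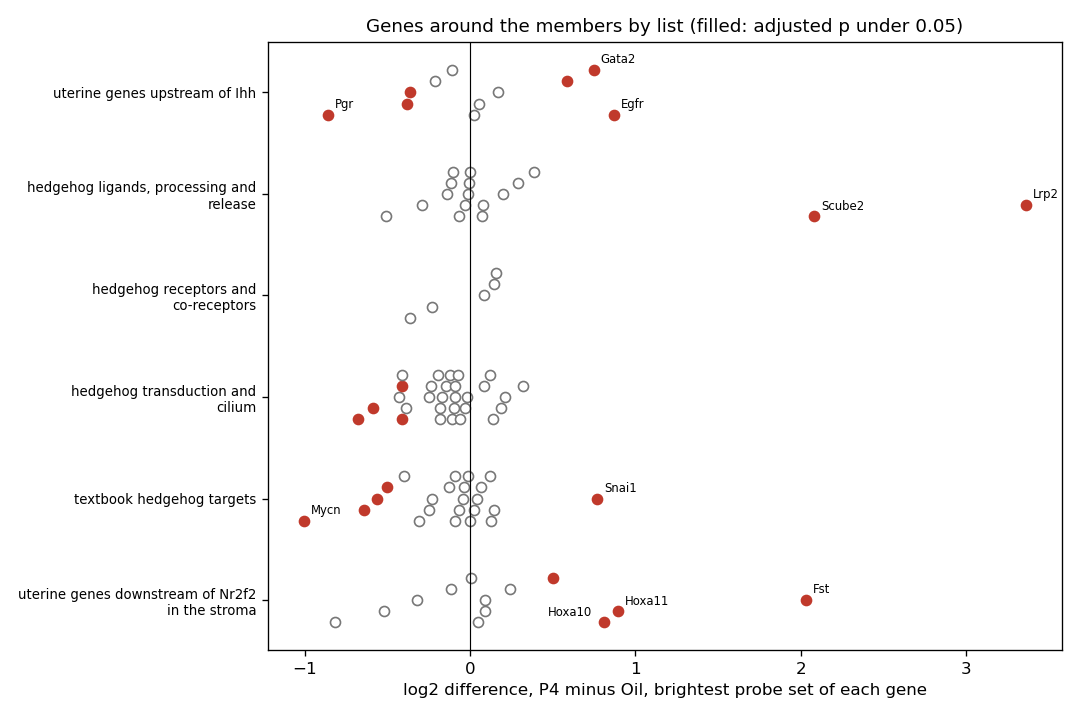
Log2 difference of P4 minus Oil (x axis) of the brightest probe set of each gene in 6 lists around the members (y axis), filled where the adjusted p was under 0.05. Scube2 and Lrp2 stand apart within their list at 2.08 and 3.36. No gene of the list of hedgehog receptors and co-receptors passes, and the filled genes of the cilium list all lie below 0.

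Over all 6 lists 10 of 96 measured genes rose and 11 fell (21 of 96, beside 11.4% of all genes), with a median log2 difference of -0.06. The lists were drawn up with earlier results of these arrays known, so these shares are descriptions. The count was 10 without Oil array 1 or without Oil array 2, and 3 without both arrays numbered 2, Lrp2, Scube2 and Hoxa11.

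The genes whose levels over the 6 arrays were most like those of Ihh, by Pearson's r of log2 values among 11531 brighter genes, were Zbtb16 (0.999), G3bp1, Ipo13, Top1 and Mon1a (0.996). Among these genes 279 had r over 0.95, and the points share the difference between the groups. Zbtb16, a transcriptional repressor, differed by 2.01 ± 0.25. The genes most like Ptch1 were Tmem167b (0.98), Zmym4, Get1, Elp3 and Ddx23, and those most like Nr2f2 were Heatr6 (0.975), Patz1, Paf1, Rab11fip3 and Taf6l. None of these last 10 passed the test, which their likeness to profiles without a called difference all but fixed in advance.

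The arrays themselves were alike in median intensity, from 117 to 123, but differed in leukocyte transcripts. The summed level of 7 granulocyte markers was 737 to 862 on 3 arrays (Oil 1, Oil 2 and P4 array 1). It was 7189 to 15840 on the other 3, without a call for any of the 7 (0 by unadjusted limma p under 0.05). On those 3 the brightest were S100a8, S100a9 and Ltf, the last also listed downstream of Nr2f2. Elane and Mpo did not follow the split. Elane read 171 to 215 on the arrays with the low sum and 186 to 240 on the others, and Mpo 89.2 to 112.5 and 89.4 to 194. Ihh read 265 and 130.0 on Oil arrays 1 and 2 and 766 on P4 array 1. On the other side it read 193 on Oil array 3 and 599 and 657 on P4 arrays 2 and 3. Each side holds only 1 array of 1 group, and the part of this split in the Ihh difference was not tested. Endothelial markers had 0 calls of 7 and smooth muscle markers 0 of 8, with 3 and 1 lower by unadjusted limma p. With the block 2 endothelial markers passed as lower, the receptor Tek (-0.38 ± 0.10, limma adjusted p 0.0144) and the adhesion molecule Pecam1 (-0.34 ± 0.14, 0.0295). Of the 5 mesothelial markers 0 passed (1 lower by unadjusted p under 0.05), and of 7 macrophage and T cell markers 0 (0 by unadjusted p). The summed level of the macrophage and T cell markers split the arrays as that of the granulocyte markers did. It was 1759 to 3384 on Oil arrays 1 and 2 and P4 array 1, and 5630 to 6410 on the other 3. Of 8 ovary and oviduct markers 1 passed: Inha, an inhibin subunit, was lower, at 140.4 after Oil and 89.0 after P4. The hybridisation controls, control transcripts added to each sample, were lower on the P4 arrays by 0.126 log2; scaling to them moved every difference up by 0.13, left the calls of Ihh, Gas1 and Nr2f2 1431237_at in place and raised the share of higher calls over all probe sets from 47.9% to 78.5%. The part of the leukocyte transcripts and of the controls in the other results was not tested.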

How the data were processed

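Biotin-labelled cRNA of 6 uterine horn samples was hybridised to expression arrays, per the labels. The authors deposited 1 linear intensity per probe set and array; the method of summarising and scaling them is not given here, as no source at hand states it. They were turned into log2(intensity + 16) without further normalization, since array medians differed by 0.067 log2, under the limit of 0.5. The 64 control probe sets were left out. Gene symbols were read from the annotation of the platform (1 symbol for 34945 probe sets, several for 932, none for 9160, which stay unnamed here); 34741 matched a RefSeq gene table by gene ID. The comparison of P4 with Oil used lmFit and trended eBayes of limma (version 3.58.1, under R 4.3.3) on 6 arrays and 45037 probe sets, two-sided, with Benjamini-Hochberg adjustment and a threshold of 0.05. The fit was tested on simulated data. A gene was counted by its probe set with the highest mean. The number of arrays limits the precision. Named were all members, up to 5 called genes of each list by size and, in a list with fewer than 2 called, the 2 brightest; others named (Shh, Dhh, Hhat, Cdon, Boc, Sufu, Foxf1, Esr1, Bmp2, Wnt4, Lum, Inha, Bmp4, Ccnd1, Tulp3, Ift172, Efcab7, Evc, Muc1, Angpt1, Tek, Pecam1 and other markers) were chosen after their values were seen. Members and lists were chosen with earlier results of these data known. Figures were drawn with matplotlib 3.10.9.

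The labels number arrays 1 to 3 in each group. Oil and P4 arrays sharing a number had deviations from their group means that correlated at 0.44, 0.13 and 0.53, all over the limit of 0.1. Same-numbered arrays were therefore treated as pairs, from the data alone, in the fit with the block and in the differences within numbers. The main fit had no block. Oil array 2 correlated more with P4 array 1 (0.16). Blocked counts are given for lists whose calls change with the block. Alternatives were other scalings, pseudocounts of 1 and 50, filters on dim probe sets, other sets of features, other moderation, array weights, the block, and arrays left out.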

Additional observations from a re-analysis of the deposited data

How the results depend on the processing

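With the replicate number as a block (the pairing described with the processing), limma called 6673 of all probe sets in place of 3881, 6 of the members' in place of 4, and 30 of the listed pathway genes in place of 21. Over all probe sets the count was 2375 with the brightest probe set of each gene alone and 2195 with probe sets averaged within genes, where fewer features are tested. Quantile normalization left 2 member probe sets and 1 member gene in place of 4 and 2, and moderation without trend 1 member gene; the cause was not tested. With 1 array or both arrays of 1 number left out, which leaves fewer samples, the calls ran from 346 to 3614 over all probe sets, from 1 to 5 of the member probe sets, from 1 to 2 of the member genes and from 3 to 24 of the pathway genes. The lowest of these came without both arrays numbered 2 (346, 1, 1 and 3). Of 90 counts under alternatives 62 stayed within 1.5 times, and no value changed sign with a call. Member probe sets could not be counted where 1 value stands for a gene. With 3 arrays a group, dim probe sets such as those of Hhip bound a difference only by their intervals.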
